A study of Mus musculus with 2 samples.

Results

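S-phase MuSCs were taken as the muscle stem cells (MuSCs) of mouse plantaris muscle whose RNA was rich in replication-dependent histone transcripts. Of 4954 cells in the series, 1620 formed a MuSC pool, and 276 of these were S-phase cells, 270 from the mechanical overload (MOV) library and 6 from the sham library. A pool cell had at least 2000 UMIs (counts of unique molecules), under 10% of them mitochondrial, at least 2 UMIs of Pax7, Myf5 and Myod1 together, no Pdgfra UMI, and under 2% of its UMIs in the myofibre genes Acta1 and Ckm. An S-phase cell held at least 1000 CPM (UMIs of a gene per 1000000 UMIs of the cell) of Hist1h1b, Hist1h2ap and Hist1h2ae combined, and this sum exceeded the summed CPM of the mitotic genes Ube2c, Ccnb1, Cdc20 and Cenpf. Pool cells with the mitotic sum at 1000 CPM or more and at least as large as the histone sum were called G2/M, and those with both sums under 1000 CPM non-cycling.

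Single-cell RNA-seq (10x Genomics, 3′) had been run on 1 Sham and 1 Overload library from Pax7rtTA; TRE-H2B-GFP mice aged 26 weeks. In these animals rtTA is expressed from Pax7, so doxycycline labels nuclei of Pax7-expressing cells with a histone H2B-GFP fusion, and both groups had drunk doxycycline at 2.0 mg/mL for 2 weeks. Overload means removal of synergist muscle, which loads the plantaris, and sham means the incision and probing of the tendon alone, with cells taken after 5 days. The extraction protocol names a sort on VCAM with CD31, CD45 and Sca1, while the design text of the series names GFP. How many animals each library pooled could not be settled, because the labels speak of a mouse and the study's methods of several mice per group. With 1 library per condition no test was made, cells are not replicates, and every interval given is a 95% interval that covers counting error only.

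During S phase a cell copies its genome once. Origins are licensed beforehand by loading the MCM helicase, fired by kinases, and copied by a replisome that needs deoxynucleotides and new histones. Replication-dependent histone genes sit in clusters, have no introns, and make transcripts that mostly end in a stem-loop bound by SLBP in place of a poly(A) tail, and they are transcribed chiefly while DNA is copied. MuSCs are quiescent in resting adult muscle, enter the cycle on injury or overload, and usually leave it as they switch on Myog and fuse.

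The Overload library held 3854 cells and 88498487 UMIs, and the Sham library 1100 cells and 7302661 UMIs. Overload S-phase cells had a median of 37118.5 UMIs each, G2/M cells 41314 and non-cycling cells 19976. After every cell was thinned to 2000 UMIs, the medians of genes detected were 1018, 1030 and 975, so the classes were close at equal depth. In the libraries 44 barcodes occurred in both, and 39 of them were deeper in sham, with 12279 to 103126 UMIs there and 501 to 2057 in Overload. The barcodes of 4 of the 6 sham S-phase cells were shared, as was 1 of the 270 Overload S-phase barcodes. Y-linked transcripts without Xist were seen in 81 of 94 sham and 1405 of 1526 Overload pool cells, and 0 pool cells had Xist alone.

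Because the cells were chosen by 7 cell cycle genes, the levels of these genes describe the selection. The histone sum ran from 1010 to 9410 CPM over the 270 Overload cells, with a median of 3079 CPM. The cells just inside the limit had 1010, 1081 and 1119 CPM and those just outside had 997, 989 and 968 CPM. Only 8 S-phase cells lay under 1200 CPM and 4 other pool cells between 800 and 1000 CPM, so few cells sat near the limit. Against the mitotic sum the edge was closer, with the nearest members at 1010 against 992, 1936 against 1911 and 1210 against 1170 CPM of histone and mitotic genes, and the nearest cells outside at 1099 against 1165 and 1326 against 1466 CPM. In 57 of the 270 cells the mitotic sum also reached 1000 CPM.

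**Figure D1:**
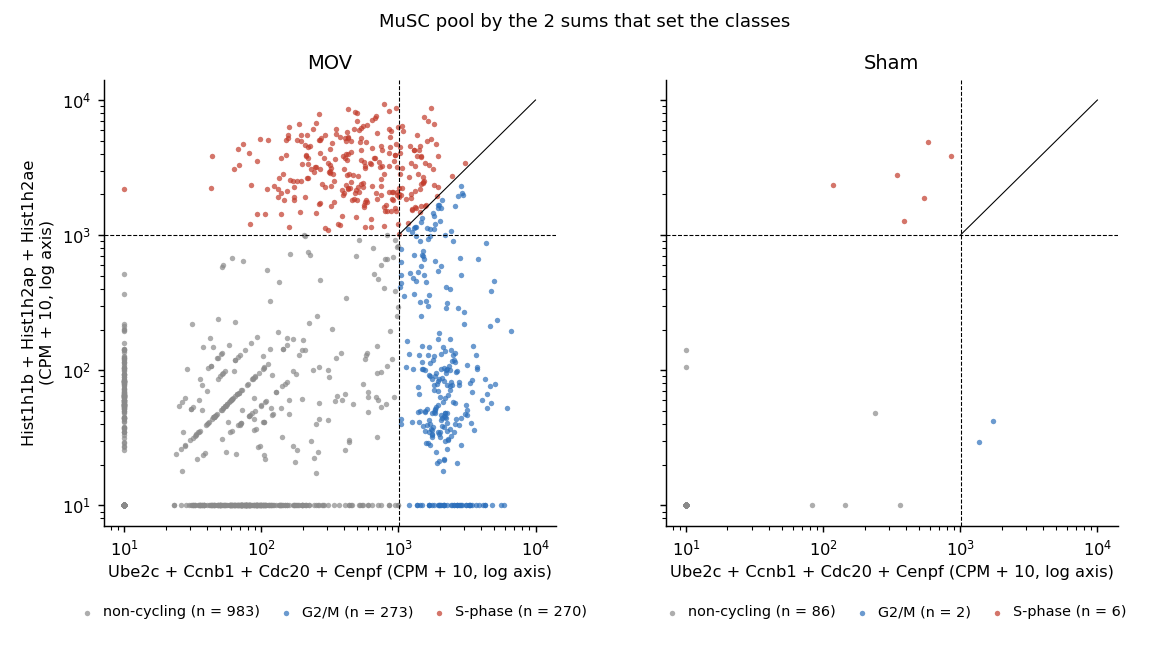
Each point is 1 cell of the MuSC pool, with the summed CPM of the 4 mitotic genes on the horizontal axis and of the 3 histone genes on the vertical axis, both as CPM + 10 on log axes. Dashed lines mark 1000 CPM and the solid line equal sums. The MOV library (left) holds 270 S-phase cells and the Sham library (right) 6.

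S-phase cells made up 17.7% of the Overload pool (270 of 1526 cells, exact binomial interval 15.8 to 19.7%) and 6.38% of the sham pool (6 of 94, interval 2.38 to 13.4%). G2/M cells were 17.9% (273 cells) and 2.13% (2 cells), and non-cycling cells 64.4% (983 cells) and 91.5% (86 cells). The S-phase share was thus higher in the Overload library, although the sham value rested on few and shallower cells. With the classes set on cells thinned to 2000 UMIs the shares were 17.1% and 6.38%. With a mitochondrial limit of 5%, which left 29 sham pool cells, they were 18.5% and 13.8%, so the gap was then much smaller. Without the shared barcodes it was 17.7% in Overload (269 of 1523) and 2.41% in sham (2 of 83). The sham S-phase cells left out in this way had 32146 to 55913 UMIs, and the 2 kept had 17914 and 24392, so the deeper ones were removed.

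The 7 genes that set the classes had the following levels when UMIs were summed over all cells of a class. Hist1h2ap, a histone H2A gene, stood at 1740 CPM in S-phase, 36.2 in non-cycling and 142 in G2/M cells. Hist1h1b, which encodes a linker histone H1, stood at 699, 15.4 and 63.1 CPM, and Hist1h2ae, another H2A gene, at 681, 16.3 and 49.3 CPM. Hist1h2ap has near-identical copies in the cluster, so its count may be shared with them. Among the mitotic genes, Ube2c, a ubiquitin-conjugating enzyme of the anaphase-promoting complex, had 309, 54.9 and 1009 CPM, so S-phase cells lay between the other classes.

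The label S-phase was then checked with Rrm2, the regulatory subunit of ribonucleotide reductase, which was a marker but not part of the selection. Rrm2 (chr12:24708241-24714146, GRCm38, + strand) had 340 CPM in S-phase, 265 in G2/M and 94.9 in non-cycling cells. Its log2 ratio was 1.84 (interval 1.77 to 1.91) against non-cycling and 0.36 against G2/M cells. Per cell it ran from 0 through a median of 292 to 1402 CPM in S-phase cells, of which 268 of 270 had a UMI, and the median of non-cycling cells was 0, so the ranges overlapped. Thinned to 2000 UMIs, 135 of 270 S-phase cells (interval 43.9 to 56.1%), 34.1% of G2/M and 13.2% of non-cycling cells had an Rrm2 UMI, beside 6.23% of 337 Pdgfra-positive cells of the same library without myogenic UMIs. These Pdgfra-positive cells had a median of 35697 UMIs, and 43 of them had a mitotic sum over 1000 CPM, so they include cycling cells and give a comparison rather than a background level. Before thinning the shares of the 4 classes were 99.3%, 92.3%, 45.9% and 38.0%. Rrm2 was thus high in both cycling classes, and most so in S-phase cells.

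The stem-loop is shown because it marks most transcripts of the histone family on which these cells were chosen. Of 67 replication-dependent histone genes in the files, 54 lie on chromosome 13, 10 on chromosome 3, 2 on chromosome 11 and 1 on chromosome 6. In GENCODE transcripts (GRCm38), the histone stem-loop consensus of 16 letters was found in 46 of the 67, searched on the transcript strand, and not found in 21, among them Hist1h1b. The form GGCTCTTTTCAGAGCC occurred in 25 genes and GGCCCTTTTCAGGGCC, in H4 genes, in 7. Each line gives up to 30 bases, read 5′ to 3′ along the transcript, with the stem-loop in capitals, for 2 genes of the selection and 2 outside it.
Hist1h2ap, chr13:21833026-21833051, − strand: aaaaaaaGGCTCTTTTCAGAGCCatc
Hist1h2ae, chr13:23570661-23570690, − strand: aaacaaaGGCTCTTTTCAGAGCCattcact
Hist1h1e, chr13:23621775-23621804, − strand: acccaaaGGCTCTTTTCAGAGCCacccaca
Hist1h4d, chr13:23581943-23581972, + strand: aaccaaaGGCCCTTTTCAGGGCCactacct
The annotated transcript ended 3 bases after the Hist1h2ap stem-loop and 151, 1153 and 770 bases after those of Hist1h2ae, Hist1h1e and Hist1h4d. The library method primes from poly(A), so the counts of these genes need not follow the level of their stem-loop transcripts.

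Replication-dependent histone genes outside the selection had the largest median ratio of the gene lists in S-phase against non-cycling cells. Of 64 such genes, 35 had at least 50 UMIs in the S-phase and non-cycling cells together, and 33 of these were at least 2-fold higher in S-phase cells and 0 were lower, with a median log2 ratio of 4.19. Over all 11477 genes with that many UMIs, 5.72% were at least 2-fold higher and 5.56% at least 2-fold lower, and the median log2 ratio was -0.08. A gene could reach the minimum through the S-phase class alone, and the cells were chosen on genes of the same family, so the count describes the selection further. Summed over the 64 genes, the level was 1539 CPM in S-phase, 296 in G2/M and 194 in non-cycling cells.

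Linker histone genes outside the selection showed this plainly. Hist1h1e, an H1 gene, had 304 CPM in S-phase, 30.2 in G2/M and 16.7 in non-cycling cells, a log2 ratio of 4.19 (interval 4.04 to 4.33) against non-cycling cells. Hist1h1a, another H1 gene, had 57.8, 4.19 and 1.27 CPM, a log2 ratio of 5.51 (5.01 to 6.06). Both were low in the other classes. The core histone gene with the largest ratio was Hist1h2bn, an H2B gene, at 19.1, 1.30 and 0.384 CPM and a log2 ratio of 5.64 (4.73 to 6.72). Hist1h2ab, an H2A gene, followed among these at 5.49, and the H4 gene Hist1h4d, at 3.80, was near the median of the list.

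A few histone genes behaved differently. Hist1h2bc, an H2B gene, had 81.6 CPM in S-phase, 57.8 in G2/M and 67.7 in non-cycling cells, a log2 ratio of 0.27. Hist3h2a was also under 2-fold, at 0.31. Hist1h1c, an H1 gene, was 1.49 higher in S-phase cells on the log2 scale and was lower in G2/M cells (21.8 CPM) than in non-cycling cells (32.0 CPM). Thinned to 2000 UMIs, 43.3% of S-phase cells had a Hist1h1e UMI, 6.96% of G2/M and 3.46% of non-cycling cells, beside 6.82% of Pdgfra-positive cells, which include cycling cells.

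Promoters of these genes are shown because the genes were high in the same cells. Each line gives 150 bases before the RefSeq start (GRCm38.p6), 5′ to 3′ on the strand of the gene, with capitals for CCAAT on either strand (ATTGG where it lies on the other), for the TATA form TATAAA, for the H1 box AAACACA and, in Mcm5, for an E2F match on the other strand, TTTGGCGC. Positions were counted back from the start.
Hist1h1b, chr13:21780626-21780775, − strand: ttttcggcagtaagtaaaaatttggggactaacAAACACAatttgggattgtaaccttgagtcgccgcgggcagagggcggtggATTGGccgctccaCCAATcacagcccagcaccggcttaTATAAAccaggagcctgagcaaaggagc
Hist1h1a, chr13:23763518-23763667, + strand: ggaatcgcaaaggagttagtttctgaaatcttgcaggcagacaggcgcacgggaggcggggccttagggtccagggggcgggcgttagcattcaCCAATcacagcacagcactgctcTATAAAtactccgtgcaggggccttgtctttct
Rrm2, chr12:24708104-24708253, + strand: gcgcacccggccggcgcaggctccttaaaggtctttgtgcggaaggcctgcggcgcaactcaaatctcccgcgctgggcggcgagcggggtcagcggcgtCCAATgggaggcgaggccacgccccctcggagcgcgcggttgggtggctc
Mcm5, chr8:75109359-75109508, + strand: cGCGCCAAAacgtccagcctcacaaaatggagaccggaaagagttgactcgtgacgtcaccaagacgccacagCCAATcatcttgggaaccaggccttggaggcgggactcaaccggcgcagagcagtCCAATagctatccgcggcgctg
Hist1h1b held TATAAA at -28 and CCAAT at -53, and Hist1h1a held them at -33 and -56, a like spacing in both H1 genes. In windows of 250 bases before to 50 after the start, searched on both strands, CCAAT was in 53 of 62 histone promoters (85.5%) and in 41.1% of all 27025 promoters. It was in all of the H1, H2A, H2B and H3 promoters but in 3 of 12 H4 promoters, and in 73.8% of the promoters of the mitosis list. TATAAA was in 56.5% of histone and 15.7% of all promoters. The H1 box was in 5 of 6 H1 promoters and in 8.22% of all. The E2F forms searched were TTTGGCGC, TTTCGCGC, TTTCCCGC and TTTGCCGC, and at least 1 was in 9 of 15 origin licensing promoters, 10 of 31 replisome promoters, 10 of 62 histone promoters (16.1%) and 2.60% of all. A match is a description of letters, not a bound site.

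Genes of DNA replication were higher in S-phase than in non-cycling cells at each step, with smaller ratios against G2/M cells. Of 17 origin licensing genes, 12 were at least 2-fold higher than in non-cycling cells and 0 lower, with a median log2 ratio of 1.31. Of 40 origin firing and replisome genes 37 were higher and 0 lower, with a median of 1.64. Against G2/M cells, where 1.93% of 10592 genes were at least 2-fold higher and 1.09% lower and the median was -0.02, these became 1 of 17 (median 0.57) and 9 of 40 (median 0.76).

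Mcm3, a subunit of the MCM helicase, had 155 CPM in S-phase, 88.2 in G2/M and 55.7 in non-cycling cells, a log2 ratio of 1.47 (1.37 to 1.57) against non-cycling cells. Mcm6, another subunit, was the licensing gene past 2-fold against G2/M cells, at 1.21. Cdc6, which loads MCM, and Gmnn, which blocks reloading, were 2.19 and 2.23 higher than in non-cycling cells, so a loading gene and a gene that blocks reloading were both high in this class. The origin recognition gene Orc4 was at -0.24, the one licensing gene below 0.

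Pcna, the sliding clamp, had 272 CPM in S-phase, 102 in G2/M and 93.5 in non-cycling cells, so that G2/M and non-cycling cells were nearly level. Its log2 ratio was 1.54 (1.47 to 1.62) against non-cycling and 1.42 against G2/M cells. Lig1, which joins Okazaki fragments, had 147, 64.8 and 46.4 CPM and showed the same order. Clspn, a fork checkpoint mediator, was 2.56 higher than in non-cycling cells, and Ticrr, needed to fire origins, 3.50 higher at only 7.85 CPM. Dscc1, of an alternative clamp loader, had the largest ratio against G2/M cells in this group, at 1.80, while Dbf4, the activator of the firing kinase, was below 0 at -0.54. Per cell, Pcna ran from 0 through a median of 263 to 1288 CPM, and 264 of 270 S-phase cells had a UMI. After thinning, 37.8% of S-phase, 16.1% of G2/M, 15.9% of non-cycling and 16.0% of Pdgfra-positive cells had a Pcna UMI, so the share was highest in S-phase cells and like in the other 3 classes.

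Nucleotide supply genes ranged from level to several-fold higher. Of 25 genes 10 were at least 2-fold higher than in non-cycling cells and 0 lower, with a median log2 ratio of 0.92. Tk1, thymidine kinase, had 99.8 CPM against 17.0, a log2 ratio of 2.56, and Tyms, thymidylate synthase, 185 against 39.8 CPM, a ratio of 2.21. Dck, deoxycytidine kinase, was 2.40 higher than in non-cycling and 1.52 higher than in G2/M cells. Dut, which keeps uracil out of DNA, had 384 against 107 CPM. Genes of general nucleotide metabolism were nearer the median of all genes, with Nme1, a nucleoside diphosphate kinase, at 0.27 and Samhd1, which degrades deoxynucleotides, at 0.08.

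Of 23 genes of histone processing and chromatin assembly, 19 were at least 2-fold higher than in non-cycling cells, with a median of 1.47. Against G2/M cells 4 of 23 were, with a median of 0.52. Slbp, the stem-loop binding protein, had 226 CPM in S-phase, 91.0 in G2/M and 72.9 in non-cycling cells, a log2 ratio of 1.31 against G2/M cells. Chaf1b, of the CAF-1 histone chaperone, had 36.9, 8.68 and 10.1 CPM, with G2/M cells below non-cycling cells. Asf1b, a histone chaperone, was 2.61 higher than in non-cycling cells. Hmgb2, a DNA-bending protein, had 972 and 955 CPM in S-phase and G2/M and 192 in non-cycling cells, so it did not separate the cycling classes. Of 10 replication-independent histone genes 6 were higher than in non-cycling cells and 0 of 10 than in G2/M cells, where the median was 0.05. H2afz, the variant H2A.Z, had 2641, 2792 and 906 CPM in the same order of classes. The replication-dependent genes, with a median of 2.73 against G2/M cells and 34 of 38 past 2-fold, thus had their highest level in S-phase cells, and H2afz did not.

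Recombination repair and fork checkpoint genes were at least 2-fold higher in 24 of 35 against non-cycling and 5 of 35 against G2/M cells, with medians of 1.36 and 0.36. Fanci and Fancb, of the Fanconi anaemia crosslink pathway, were 2.86 and 2.91 higher than in non-cycling cells. Brip1, a helicase of the same pathway, was past 2-fold in both comparisons, at 2.49 and 1.33. Rfc4, a clamp loader subunit, was 1.58 higher than in non-cycling cells and only 0.35 higher than in G2/M cells.

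Cyclin E2 was the regulator that most set S-phase apart from G2/M cells. Ccne2 (chr4:11191351-11204779, GRCm38, + strand), which activates CDK2 at S-phase entry, had 63.3 CPM in S-phase, 9.91 in G2/M and 11.7 in non-cycling cells. Its log2 ratio was 2.68 (2.41 to 2.95) against G2/M and 2.43 (2.24 to 2.63) against non-cycling cells, which were thus close to each other. Among genes with at least 200 UMIs in both classes together and outside the selection and the histone lists, only Fabp4 had a larger ratio against G2/M cells, and most of its UMIs came from 1 cell, as given later. Per cell Ccne2 ran from 0 through a median of 35.6 to 515 CPM, and 175 of 270 S-phase cells had a UMI. Thinned to 2000 UMIs the shares were 11.9% (interval 8.25 to 16.3%) of S-phase, 2.20% of G2/M, 1.12% of non-cycling and 2.67% of Pdgfra-positive cells.

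Among 30 G1/S regulators, 14 were at least 2-fold higher than in non-cycling cells, 8 than in G2/M cells, and 0 were lower in either comparison. Ccne1, cyclin E1, had 62.1 CPM in S-phase, 26.1 in G2/M and 21.2 in non-cycling cells. The repressor E2f7 had 24.7, 6.87 and 2.04 CPM, and Fbxo5, which holds back the anaphase-promoting complex until mitosis, 122, 46.2 and 7.95 CPM, log2 ratios of 3.60 and 3.94 against non-cycling cells. Cyclin A2, Ccna2, was 3.00 higher than in non-cycling cells but -0.24 against G2/M cells. Ccnd1, cyclin D1, had 189, 241 and 208 CPM, so the G1 cyclin hardly differed between classes. Outside the lists, and named after their values were seen, Tcf19, a nuclear factor, had 33.7, 6.07 and 4.72 CPM, Ung, which removes uracil from DNA, 17.1, 4.84 and 10.5 CPM, and Lhx2, a homeodomain factor, 14.8, 3.54 and 3.46 CPM. The ratio of Ung against G2/M cells, 1.82, was 0.02 with cells thinned to 2000 UMIs before summing.

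CDK inhibitors differed among themselves. Of 7 genes, 2 were at least 2-fold higher than in non-cycling cells and 1 lower. The INK4 genes Cdkn2c and Cdkn2d were 1.60 and 1.70 higher. Cdkn1a (p21) had 392 CPM in S-phase, 400 in G2/M and 435 in non-cycling cells. Per cell its median was 301 CPM in S-phase and 169 CPM in non-cycling cells, so the median and the summed level pointed opposite ways. The log2 ratio of the summed levels was -0.15 against non-cycling cells. It was 0.43 when cells with Myog at 100 CPM or more were left out of both classes. Cdkn1c (p57) was the lower gene, at 227 against 744 CPM, a log2 ratio of -1.72, although its per-cell medians were 22.8 and 20.2 CPM and its highest S-phase cell held 7420 CPM.

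Mitotic genes were higher in S-phase than in non-cycling cells. Of 48 genes of mitosis and cytokinesis outside the selection, 47 were at least 2-fold higher than in non-cycling cells, with a median of 2.60, Pttg1, the securin gene, being the exception at -0.55. Against G2/M cells 0 of 48 were higher and 12 lower, with a median of -0.50. The non-cycling class was set by a low and the G2/M class by a high sum of the selecting mitotic genes. The counts of this list are therefore partly set by the selection. Top2a, topoisomerase II alpha, had 650 CPM in S-phase, 641 in G2/M and 56.8 in non-cycling cells, and the proliferation antigen gene Mki67 had 268, 245 and 28.8 CPM. Both were level in the cycling classes. Aurkb, a mitotic kinase, also had a ratio of -0.00 against G2/M cells, and Cdk1, the mitotic CDK, was at 255 and 360 CPM. S-phase cells held less of genes of late G2 and mitosis, with Cenpa, the centromeric histone, at 130 against 457 CPM (-1.82), Aurka, a spindle kinase, at -1.48 and Cdc25c, the CDK1 phosphatase, at -1.98. Esco2, the cohesin acetyltransferase that acts on replicating DNA, went the other way, at 89.7, 33.3 and 4.80 CPM and a log2 ratio of 4.22 against non-cycling cells. When the 57 S-phase cells with a mitotic sum of 1000 CPM or more were left out, 43 of 48 mitotic genes were at least 2-fold higher than in non-cycling cells, with a median of 2.38. The size of these ratios moved with the limits that define the classes. With the limits of all classes at 2000 CPM, the log2 ratio was 1.77 for Top2a, 1.24 for Cdk1 and 1.76 for Aurkb. The reported values were 3.52, 2.99 and 3.89. With only the non-cycling limit changed, to 300 CPM, the log2 ratio was 5.79 for Aurkb and 6.26 for Esco2.

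The myogenic genes used to pick the pool differed little, with Myod1 at 254 CPM in S-phase, 195 in G2/M and 175 in non-cycling cells, Myf5 at 130, 112 and 165 CPM, and Pax7, the MuSC transcription factor, at 60.1, 59.7 and 78.5 CPM. Of 18 other myogenic identity genes 0 were higher and 1 lower than in non-cycling cells, with a median of -0.51. The lower gene was Mef2c, a differentiation cofactor, at 6.35 against 25.7 CPM. Vcam1, the antigen of the sort, had 377 against 743 CPM. Apart from Mef2c, the identity genes of S-phase cells were within 2-fold of those outside the cycle.

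Differentiation and fusion genes were lower in S-phase than in non-cycling cells, and this rested on a minority of cells. Of 19 genes 18 were at least 2-fold lower and 0 higher, with a median of -2.08, and the summed level was 1306 against 4824 CPM. Myog, the differentiation factor, had 115 CPM in S-phase, 97.2 in G2/M and 567 in non-cycling cells, a log2 ratio of -2.30. Mylpf, a fast myosin light chain, was at -2.08, and at -0.75 when every cell was first thinned to 2000 UMIs. Tnnc1, slow troponin C, was at -3.92 and Myl4, an embryonic myosin light chain, at -3.31. Mymk, which drives fusion, had 30.0 against 157 CPM. For the neonatal myosin Myh8 1 UMI in S-phase stood against 243 in non-cycling cells, a log2 ratio of -6.73 with an interval of -12.04 to -4.23. Against G2/M cells, 1 of 17 was higher and 0 lower, with a median of 0.28. The higher gene was Actc1, cardiac actin, at 1.65, which was at -0.37 without cells with Myog at 100 CPM or more.

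Cells with Myog at 100 CPM or more were 34 of 270 S-phase (12.6%, interval 8.88 to 17.2%), 28 of 273 G2/M (10.3%) and 187 of 983 non-cycling cells (19.0%, interval 16.6 to 21.6%). Left out of both classes, in an alternative added after the data were seen, they took most of the difference with them. Then 3 of 18 differentiation genes were at least 2-fold lower and the median was -0.46. Over all genes, the number at least 2-fold lower stayed within 1.5 times the reported 638 of 11477. Myog was at -0.03, Mylpf at -0.12 and Actc1 at -0.90, while Tnnc1 was still at -1.03. Mef2c turned to 0.13. Leaving these cells out depends on a gene of the list itself, so a fall of the other members with it is partly by construction.

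At a Myog level of 1000 CPM or more there were 9 S-phase cells (3.33%, interval 1.54 to 6.23%), 6 G2/M cells (2.20%) and 86 non-cycling cells (8.75%, interval 7.06 to 10.7%). The 9 S-phase cells had 1706 CPM of Myog, 3017 CPM of Cdkn1c and 301 CPM of Mymk, beside 28.7, 75.0 and 15.2 CPM in the other 261 S-phase cells. They therefore held differentiation transcripts and an inhibitor of the cycle together with histone transcripts. Their histone sum was 1619 against 3202 CPM, Pcna 111 against 281 CPM and Top2a 489 against 658 CPM. The 86 Myog-high non-cycling cells had 3016 CPM of Myog, 22.1 CPM of Top2a and 43.9 CPM of Pcna, so the 9 cells lay between the groups in these genes. In Cdkn1c they did not, since the non-cycling cells had 2856 CPM, nor in Myod1, at 185 CPM beside 343 CPM in the non-cycling and 257 CPM in the other S-phase cells. The median depth of the 9 cells was 61409 UMIs, above the 37118.5 of the class. Among the preset number of top-scoring cells marked doublet-like was 1 of the 9. The part of doublets in these cells was not otherwise tested.

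**Figure D2:**
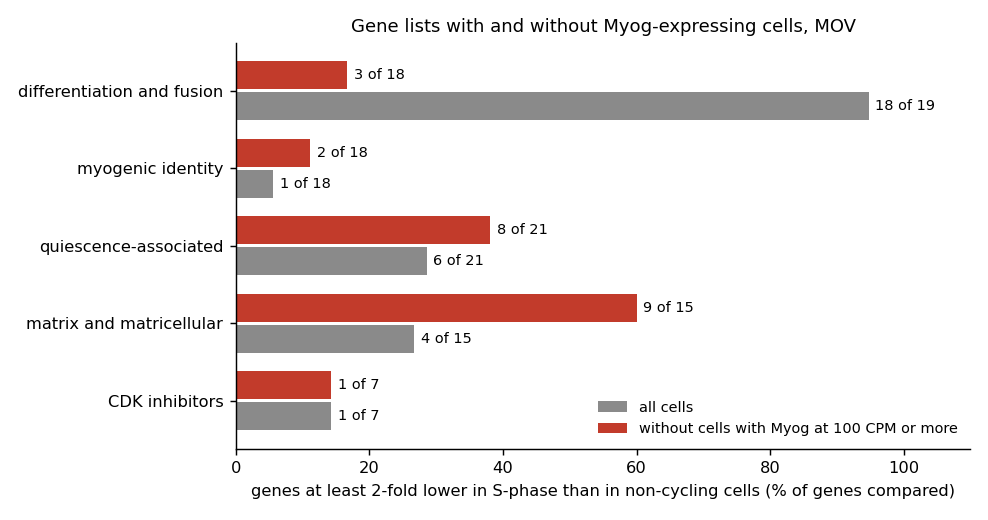
Share of the compared genes of each list that were at least 2-fold lower in S-phase than in non-cycling cells of the MOV library, for all cells (grey) and without cells with Myog at 100 CPM or more (red). The differentiation list goes from 18 of 19 to 3 of 18 genes, and the matrix list from 4 of 15 to 9 of 15.

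Quiescence-associated and matrix genes were lower in S-phase cells to a lesser degree, and more of them were lower without the Myog cells. Of 21 quiescence-associated genes 6 were at least 2-fold lower and 0 higher, with a median of -0.57, and 8 were lower without the Myog cells. Apoe, apolipoprotein E, had 160 CPM in S-phase, 139 in G2/M and 557 in non-cycling cells, and Gpx3, an extracellular glutathione peroxidase, 127, 121 and 432 CPM. Chrdl2, a BMP antagonist of quiescent MuSCs, was at -1.89. Notch1, a receptor that maintains quiescence, had 37.6, 47.6 and 41.1 CPM and barely differed. Of 15 matrix genes 4 were lower, with a median of -0.77, and 9 without the Myog cells. Over all genes, the number lower without these cells stayed within 1.5 times the reported 638 of 11477. Igfbp5, a secreted IGF-binding protein, had 197 against 646 CPM, and Col1a1, a fibrillar collagen chain, 134 against 307 CPM, while Spp1 (osteopontin) was level at 1403 and 1489 CPM. Markers of fibro-adipogenic cells moved the same way, Gsn from 356 to 191 CPM and Dcn from 173 to 109 CPM between non-cycling and S-phase cells. Of 4 such markers 1 was at least 2-fold lower, and 4 without the Myog cells, where the median was -1.25. Of 4 tenocyte markers 3 were at least 2-fold lower, with a summed level of 66.8 against 152 CPM. Their median was -1.59, or -2.18 without the Myog cells. The part of such transcripts in these lists was not tested.

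Housekeeping and metabolic groups hardly differed. The medians against non-cycling cells were 0.02 for 17 glycolysis genes, 0.08 for 20 ribosome biogenesis genes, -0.04 for 80 ribosomal protein genes and 0.07 for 92 nuclear respiratory chain genes. Only 2 of the respiratory chain genes and 0 of the others were past 2-fold. Of 15 immediate-early genes 0 were past 2-fold. Of 14 NRF2 and glutathione genes 1 was lower, Hmox1, heme oxygenase 1, at -1.05, or -0.98 with TMM factors. Nfe2l2, the gene of NRF2, had 231, 230 and 276 CPM in S-phase, G2/M and non-cycling cells, and Gclm, a subunit of glutamate-cysteine ligase, 72.2, 64.5 and 46.9 CPM. Of 16 interferon-induced genes 1 was higher, Cxcl10, a chemokine, at 159 against 76.2 CPM, and 2 were lower. Cxcl10 had 172 CPM in G2/M cells, and its log2 ratio of 1.06 against non-cycling cells was 0.79 without the 57 cells of high mitotic sum.

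Markers of most other cell types were low, but those of fibro-adipogenic cells had UMIs in 266 of 270 S-phase cells. The summed level per S-phase cell had a median of 256 CPM (range 0 to 2890) for 5 fibro-adipogenic markers, beside 534 CPM (0 to 14761) in non-cycling and 236 CPM in G2/M cells. The medians were 36.9 CPM for tenocyte, 34.0 for mural and 65.0 for myofibre markers and 0 for immune, endothelial, Schwann and erythroid markers. Immune markers reached 5976 CPM in 1 S-phase cell, while Ptprc, the pan-leukocyte antigen, had 5 UMIs in 2 cells of the class. Of 185 Cd74 UMIs of the class, 134 lay in 1 cell, Cd74 being the invariant chain of MHC class II, and its log2 ratio against G2/M cells went from 2.50 to 1.00 when the cell with the most UMIs was left out of each class. Fabp4, a fatty acid carrier of adipocytes and endothelium, had 149 of 199 UMIs in 1 cell and went from 3.28 to 1.40. Both high ratios rested mainly on 1 cell, whereas the ratio of Lhx2 was 2.09 without doublet-like cells. The genes with the lowest ratios against G2/M cells were Krt18 (-3.12) and Krt8 (-2.03), keratins, and Cep89 (-2.14), a centrosomal gene, and Krt8 was at -0.79 with cells thinned to 2000 UMIs before summing. In G2/M cells 65 of 201 Krt18 UMIs and 81 of 293 Krt8 UMIs lay in 1 cell, and without the top cell of each class the ratios were -2.80 and -1.88.

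Within the class, cells with more of the selecting histones also had more of the replication transcripts, by a smaller factor. Ordered by the histone sum in 3 groups of 90 cells, the other histone genes went from 962 to 1546 and 2413 CPM, Hist1h1e from 165 to 310 and 510 CPM, and Slbp from 190 to 207 and 305 CPM. The licensing list summed to 984, 1188 and 1276 CPM and the replisome list to 2054, 2316 and 2792 CPM, and Pcna had 217, 280 and 348 CPM. Ccne2 went from 49.3 to 63.5 and 84.4 CPM and Mki67 from 207 to 270 and 361 CPM. The mitosis list rose as well, from 5229 to 5700 and 6783 CPM, so a rise was not seen in replication genes alone. The selection kept the mitotic sum under the histone sum, which left less room for mitotic transcripts in the lowest group. The groups were also cut on histones of the same family. The rises of the mitotic and the other histone genes are thus partly set by the selection. Cenpa, a single mitotic gene, went the other way, from 141 to 133 and 108 CPM, and Myog from 193 to 91.7 and 26.6 CPM. The median depth also differed between the groups, at 45565, 37229.5 and 29347.5 UMIs, and its part in these values was not tested.

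A further split was by the mitotic sum, at 1000 CPM, which left 57 cells above and 213 below at like median depths of 36541 and 37380 UMIs. The licensing genes summed to 783 CPM (interval 747 to 820) above and 1217 CPM (1194 to 1240) below. Ccne2 had 28.6 against 72.0 CPM, E2f1, the activator of S-phase genes, 10.1 against 32.6 CPM, Cdc6 19.3 against 41.2 CPM and Ung 3.08 against 20.6 CPM. The cells with more mitotic transcripts thus had less of the transcripts of S-phase entry. Their histone genes outside the selection were not lower, at 1854 against 1460 CPM. A cell above the split was in the class only if its histone sum was larger still, so this value is partly set by the selection. Cenpa had 280 against 92.1 CPM, as the split by mitotic genes would set. Across the 270 cells the licensing sum went with the replisome sum (Spearman rho 0.80), with nucleotide supply (0.71) and with Ccne2 (0.52), against the mitosis list (-0.35), and less with the 3 selecting histones (0.26), the other histones (0.12) or UMIs per cell (-0.07). The replisome sum went with the selecting histones at 0.38 and with the other histones at 0.22. These cells share a library and each sum was divided by the same cell total, so the coefficients are a description.

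**Figure D3:**
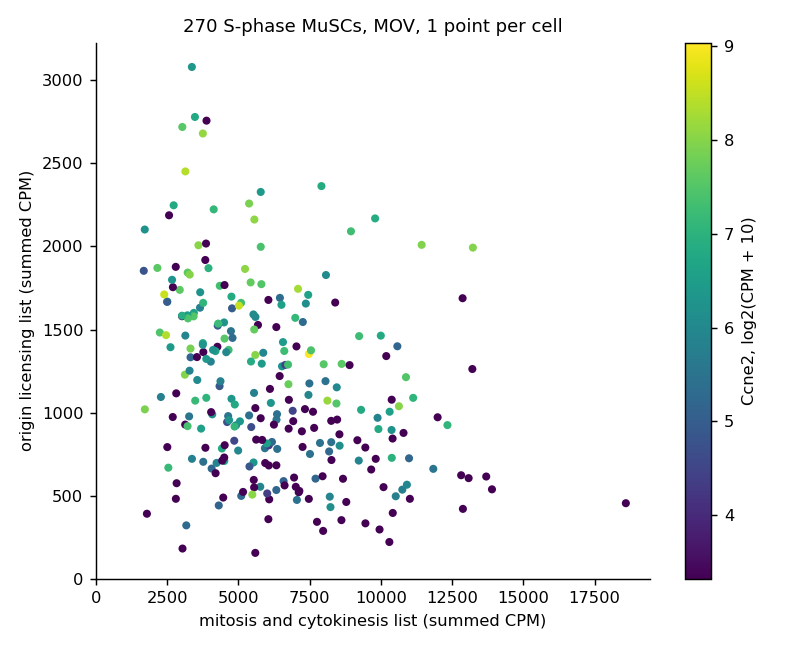
Each point is 1 of 270 S-phase cells of the MOV library, with the summed CPM of the mitosis and cytokinesis list on the horizontal axis, the summed CPM of the origin licensing list on the vertical axis and Ccne2 as log2(CPM + 10) in colour. Licensing was lower where mitotic genes were higher (Spearman rho -0.35), and cells with much Ccne2 lie mostly above 1000 CPM of licensing genes.

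The 6 sham S-phase cells had a median of 41019 UMIs, beside 8052 for sham non-cycling cells. Rrm2 was at 309 CPM (exact Poisson interval 242 to 390) in them and 32.5 CPM in sham non-cycling cells, beside 340 CPM (329 to 351) and 94.9 CPM in the Overload library. Ccne2 was at 64.4 CPM (36.1 to 106), beside 63.3 CPM, so its interval held the Overload value. Pcna stood higher in the sham S-phase cells, at 567 CPM (475 to 673) beside 272 CPM, and was also higher in sham non-cycling cells, at 145 beside 93.5 CPM. Cenpa stood lower, at 60.2 CPM (32.9 to 101) beside 130 CPM. Pax7 was at 34.4 CPM (14.8 to 67.7) in sham S-phase and 173 CPM in sham non-cycling cells. One of the 6 cells, with a shared barcode, held 56 Myog UMIs and no Pax7 UMI, and the others held 0 to 2 Myog UMIs. In the 2 cells whose barcodes were not shared, the licensing genes summed to 1938 CPM beside 975 CPM for all 6, and the differentiation genes to 355 beside 1452 CPM, so the sham values depended on which cells were kept.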

How the data were processed

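Fresh plantaris was digested, MuSCs were sorted and 10x 3′ libraries were sequenced. Per the submitters' notes, the authors aligned reads to mm10 with Cell Ranger 6.0.0. The deposited files are the filtered matrices of raw UMI counts (32285 genes, no normalization). CPM were computed here from all UMIs of a cell or class. Classes were compared by their summed UMIs, and a gene with at least 50 UMIs in both classes together was compared by the log2 ratio of CPM, with an exact conditional 95% interval. Called means at least 2-fold, not a test. Shares carry Clopper-Pearson intervals and summed CPM exact Poisson intervals. Detection shares were taken after drawing 2000 UMIs from every cell. Doublets were kept in the reported values. Scanpy 1.11.5 (scrublet; Python 3.11.15, numpy 2.4.6, scipy 1.17.1) gave each cell a doublet score. The number marked doublet-like was set beforehand at 0.8% per 1000 cells scored, and the top-scoring cells were taken. These were 75 of 3060 Overload cells, 13 of them S-phase, and 4 of 738 sham cells, so the totals are not a doublet rate found in the data. Scaling factors came from edgeR 4.0.16 and DESeq2 1.42.0, and the scripts were tested on simulated data. The members and gene lists were chosen with earlier results of these data known. Genes named were those of the selection, the 10 highest and lowest of each comparison with at least 200 UMIs, up to 4 members of each list by UMIs and 4 by ratio, and genes the study names. A ranking without histone genes (Esco2, Tcf19, Ung, Lhx2) was added after the values were seen, and Orc4, Dbf4, Mcm5, Ccne1, E2f1, Hist3h2a, Mymk, Pttg1 and Samhd1 were named after theirs were.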

Additional observations from a re-analysis of the deposited data

How the results depend on the processing

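No paired analysis was possible because each condition has replicate 1 only. With 1 library per condition no value has a replicate check, and the depth of the 270 cells limits genes of few UMIs most. The sham share was 13.8% (Overload 18.5%) with a mitochondrial limit of 5%, and the Overload share 13.5% with class limits of 2000 CPM. A restriction to Xist-only cells gave no value, since there were 0. Genes at least 2-fold higher and lower against non-cycling cells numbered 303 and 335 after thinning to 2000 UMIs before summing and 2301 and 3853 with at least 1 UMI, and 299 were lower with at least 200 UMIs, beside 657 and 638. Against G2/M cells they numbered 43 and 52, 2344 and 1881, and 86 and 55 in the same settings, and 183 were lower by the mean of per-cell CPM, beside 204 and 115. Thinning and the UMI minimum also changed how many genes were compared, so the counts in those settings are not shares of the same genes. Without Myog cells, 3 differentiation, 9 matrix and 0 myofibre marker genes were lower. At 5000 UMIs the shares with a UMI in S-phase and non-cycling cells were 75.9% and 21.5% (Rrm2), 20.7% and 3.30% (Ccne2) and 69.3% and 5.66% (Hist1h1e), and 20.2% of non-cycling cells had Myog. A change of side of 0 was recorded only for named genes past 2-fold in the reported values, and smaller ratios could change side as well. Those recorded against non-cycling cells were Cd74 (-0.07 with the 5% limit, -1.14 and -0.15 with at least 1 and 4 myogenic UMIs, -0.07 without its top S-phase cell), Fabp4 (-0.40 with 1 myogenic UMI, -0.67 at 2000 CPM, -0.82 with classes from thinned cells, -0.24 without doublet-like cells), Cenpa (-0.10 at 2000 CPM) and Mef2c (0.13 without Myog cells). Against G2/M cells they were Fabp4 (-0.04, thinned classes) and Actc1 (-0.37, without Myog cells). The cause was not tested. TMM and DESeq2 factors moved the median of all genes by 0.07 against non-cycling cells. The other 187 of 211 summary values stayed close to the reported value. This means within the counting interval of the reported share, which is wide for sham, or within 1.5 times the reported count. Of the ratios of named genes past 2-fold, counted per gene and comparison, 19 fell under 2-fold in some setting.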
